A study of Mus musculus with 6 samples.

Results

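Polycomb, trithorax and chromatin remodelling genes were followed in mouse epiblast stem cells grown with and without Activin A. The set holds 52 genes, listed by name, out of 52609 annotated genes with a transcript in the data, and the estimated reads of all transcripts of each gene were summed. All 52 passed the filter on low counts and were among the 15448 genes tested. They fall into the core of Polycomb repressive complex PRC2 (6 genes) and its accessory subunits (4), the catalytic core and PCGF subunits of PRC1 with its partner KDM2B (9), the CBX, PHC and SCM subunits of PRC1 (9), the MLL/COMPASS histone methyltransferases with the H3K27 demethylases (8), SWI/SNF (10), and the CHD remodellers with NuRD (6).

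Epiblast stem cells are taken from the post-implantation epiblast and represent the primed form of pluripotency. Here they were kept on a feeder layer of inactivated embryonic fibroblasts, in medium with serum replacement. In the group with Activin A, a ligand of the TGF-beta family whose receptors activate SMAD2 and SMAD3, 3 libraries came from cells given 20 ng/mL of it. In the group without Activin A, 3 libraries came from cells given none. Both groups also received FGF2 at 10 ng/mL, the Wnt secretion inhibitor IWP2 at 5 µM and SB431542 at 2 µM, an inhibitor of the type I receptors for Activin and Nodal, so the cells with Activin A were under receptor inhibition too. By its title the series asks how Activin A affects the path of these cells toward ectoderm. The labels do not say whether the 3 libraries of a group came from separate cultures, so the spread behind each p-value may be technical. The treatment text is worded alike for all 6 samples, and 1 library of the group without Activin A, replicate 1, lists Activin A among its growth factors, although its title and genotype label say otherwise. The design text speaks of 2 lines with 3 replicates each, and a difference between lines cannot be told apart from Activin A if the groups are those lines.

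Polycomb complexes keep genes silent in cells where they are not needed: PRC2 methylates H3K27, and PRC1 binds that mark and ubiquitinates histone H2A. Trithorax-group proteins oppose them, through H3K4 methylation by MLL/COMPASS enzymes and through ATP-driven nucleosome remodelling by SWI/SNF. In pluripotent cells these complexes hold developmental genes, the Hox clusters among them, in a state that can be switched on later.

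Depth ranged over 9946521 to 16350923 estimated reads in libraries with Activin A and over 13567995 to 14992042 in those without. Lefty1, a Nodal antagonist and direct target of Activin signalling, was 18.9-fold higher with Activin A (159.8 ± 13.6 normalised CPM with and 8.44 ± 0.83 without, SD, n = 3 each), and Pou5f1 and Nanog, core pluripotency factors, were 3.09-fold and 3.94-fold higher. The library with Activin A replicate 3 stood apart from its group, since its chi-square per gene against the other two was 6.09 and 7.20 against 3.66 between those, and between 1.82 and 2.08 among the libraries without Activin A. Of 10 epiblast markers 9 were higher and Sox2 was lower with Activin A, and their summed level was 687 to 716 TPM with Activin A and 295 to 317 TPM without. All 15 feeder fibroblast markers were detected, with a summed level of 506 to 533 TPM with Activin A and 477 to 488 TPM without (6 passed as higher, 3 as lower), most of it Vim at 371 and 321 TPM, a gene that epiblast stem cells can express too. Trophoblast markers summed to 6.39 to 13.4 TPM with and 6.80 to 10.1 TPM without, neural markers to 24.1 to 26.4 TPM with and 19.8 to 20.7 TPM without, and mesoderm and endoderm markers to 0.98 to 1.16 TPM with and 1.17 to 1.74 TPM without, where Mesp1 was at 0 in every library. Most of the neural sum was Nes (17.8 TPM with and 10.5 TPM without), which passed as higher. Sox1 went the other way and passed as lower (4.22 TPM with and 6.44 TPM without). Pax6 did not pass, with all libraries with Activin A below those without in normalised CPM, and Zic1 was too low to be tested. The part of feeder cells in the results below was not tested, and in bulk RNA fewer cells of a type and less RNA per cell cannot be told apart.

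With Activin A, 23 of the 52 genes passed the test, 19 of them lower and only 4 higher (edgeR quasi-likelihood test, adjusted p under 0.05), while 29 did not pass. Among all genes tested 29.2% passed, 15.2% as higher and 14.0% as lower. Among the 10012 genes that averaged 10 CPM or more, a level that 46 of the 52 reach, 31.3% passed, 13.7% as higher and 17.6% as lower. Most of the changes were small. The median log2 fold change (with minus without Activin A) was -0.12 over the 52 genes and -0.0012 over all genes, the median size was 0.18 and 0.16, and only Phc1 and Pcgf5 passed with a change of more than 1.5-fold, as 10.6% of all genes did. In normalised CPM, 25 genes had all libraries with Activin A below those without and 7 had them above, where 21.3% of all genes lay below and 21.6% above. Without both doubted libraries, with Activin A replicate 3 and without Activin A replicate 1, 22 were lower and 5 higher, and 17 of the 23 calls held on leaving out each library in turn. Under an offset for the length of the transcripts that reads were assigned to, 9 of the 23 calls held (Rbbp7, Kdm2b, Phc1, Phc2, Arid1a, Arid1b, Arid2, Chd7 and Hdac2), and 4 held in a test of log2(TPM + 1) with limma, Phc1, Phc2, Rbbp7 and Arid1a.

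**Figure D1:**
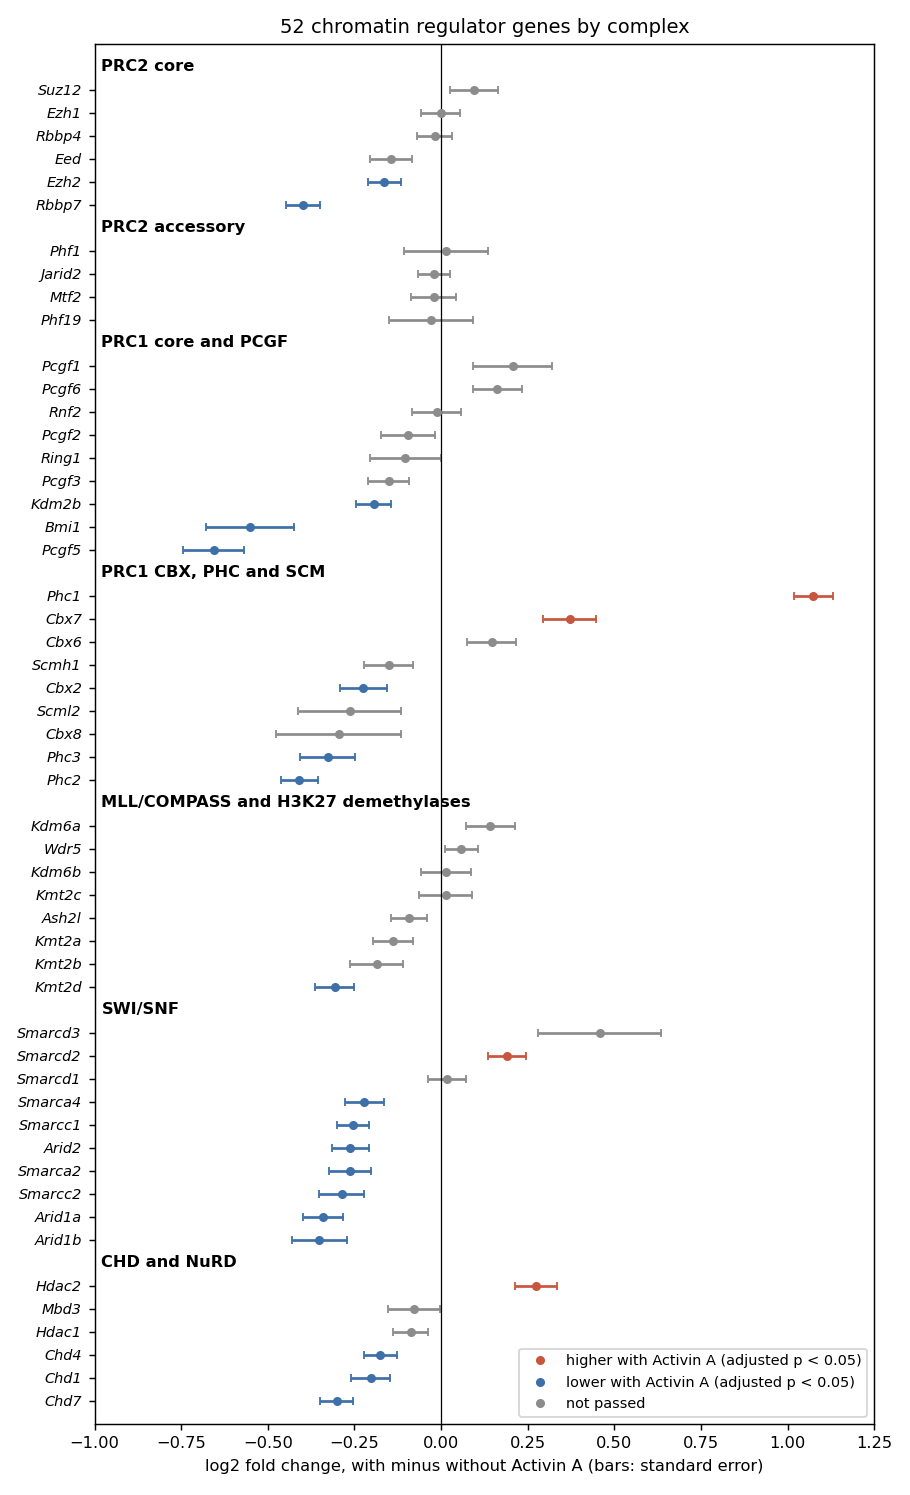
Log2 fold change of each of the 52 genes (with minus without Activin A, x axis) by complex, with bars for the standard error and colours for the outcome of the edgeR test at an adjusted p of 0.05. Phc1 stands alone at 1.07, 7 of the 10 SWI/SNF genes lie between -0.35 and -0.22, and the PRC2 accessory genes lie within 0.03 of 0.

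The PRC2 core showed little change apart from one histone chaperone. Of its 6 genes 2 were lower with Activin A and 4 did not pass. Rbbp7, a histone-binding subunit that PRC2 shares with NuRD, had 459, 476 and 507 normalised CPM with Activin A and 625, 638 and 637 without. All 3 libraries with Activin A lay well below the lowest one without. The fitted log2 fold change was -0.40 ± 0.05 (SE, adjusted p = 2.65e-05, edgeR), and per length Rbbp7 had the highest level of the 52 genes (226 ± 23.1 TPM with and 306 ± 14.6 TPM without, SD, n = 3 each). Of its 31-base words, 11.6% also occur in Gm6382 on the same strand, which held 0 reads in every library. A further 4.91% occur on the opposite strand in Txlng, an overlapping gene that held 440 to 608 reads per library.

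Ezh2, the main H3K27 methyltransferase of dividing cells, had 143, 141 and 147 CPM with Activin A and 161, 162 and 159 without. The groups did not overlap, but the difference was small, with a log2 fold change of -0.16 ± 0.047 and an adjusted p of 0.0172 (edgeR). The call was lost without replicate 1 with Activin A or any single library without it (adjusted p between 0.0583 and 0.0825). Ezh1, its paralog with weaker activity, had 51.3, 50.1 and 52.1 CPM with Activin A and 50.7, 50.5 and 52.4 without, and the 95% interval of its log2 fold change ran from -0.12 to 0.12. Ezh2 held 91.3% ± 1.1 of the summed TPM of the pair with Activin A and 91.4% ± 0.65 without. Of the Ezh2 TPM, 54.6% with Activin A and 48.6% without lay on Ezh2-213, a retained-intron transcript of 500 bases. The pair share is therefore not one of coding transcripts alone.

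The other core genes did not pass. Eed, which reads the methyl mark, had a log2 fold change of -0.14 (adjusted p = 0.09, edgeR; 0.00914 without the library with Activin A replicate 3). Suz12, the scaffold of the complex, was at 0.095, and Rbbp4, the paralog of Rbbp7, at -0.019. No accessory PRC2 gene passed in either direction: Jarid2, Mtf2, Phf19 and Phf1, which guide PRC2 to its sites, had log2 fold changes between -0.028 and 0.014. None had an unadjusted p under 0.05 in edgeR or passed in DESeq2, while the transcript length offset called Jarid2 lower. Of the exon bases of Phf1, 39.3% overlap other genes, and whether reads were counted by strand is not given in the sources used here.

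In PRC1, the ubiquitin ligases themselves did not pass. Rnf2, the main H2A ligase (RING1B), had 165, 141 and 177 CPM with Activin A and 162, 156 and 169.8 without, with a 95% interval of the log2 fold change from -0.17 to 0.14. Ring1, its paralog, had 16.6, 18.1 and 13.9 CPM with and 16.4, 17.0 and 19.3 without, and an interval from -0.32 to 0.12. Both groups overlapped for each gene.

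The PCGF subunits, which set the type of PRC1 complex, differed among themselves. Pcgf5, a subunit of a variant complex without CBX proteins, had 26.3, 23.7 and 31.9 CPM with Activin A and 40.7, 44.7 and 42.5 without. In CPM every library with Activin A was below every library without it. The log2 fold change of -0.66 ± 0.089 (adjusted p = 5.88e-05, edgeR) was the largest fall of the set. The TPM of Pcgf5 overlapped, at 18.5 ± 3.78 with Activin A and 27.7 ± 5.65 without (SD, n = 3 each). Its call was lost under the transcript length offset and in limma on log2(TPM + 1). Bmi1 (PCGF4), a subunit of canonical PRC1 known for silencing the Cdkn2a locus, had 16.4, 11.1 and 16.0 CPM with Activin A and 23.3, 19.3 and 21.0 without. It too fell without overlap, with a log2 fold change of -0.55 ± 0.13 (adjusted p = 0.00516, edgeR). The call of Bmi1 was also lost under the transcript length offset and in limma on log2(TPM + 1). Of its 31-base words 27.5% occur elsewhere, chiefly in Gm5946, which had 0 or 1 read per library.

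Kdm2b, which binds unmethylated CpG islands and brings the PCGF1 complex there, was lower with a log2 fold change of -0.19 ± 0.05 (adjusted p = 0.009, edgeR; 0.0530 when replicate 2 of the group without Activin A was left out). Under the transcript length offset its log2 fold change was -0.43 (adjusted p = 0.0383, edgeR). The other PCGF genes did not pass, and they pointed to both sides. Pcgf1 and Pcgf6 had log2 fold changes of 0.21 and 0.16, and Pcgf2 and Pcgf3 of -0.095 and -0.15. Pcgf3 passed as lower without the library with Activin A replicate 3 (adjusted p = 0.0150, edgeR).

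The largest change of the whole set was in the polyhomeotic genes, whose proteins polymerise through a SAM domain and cluster PRC1 on chromatin. Phc1 (chr6:122317731-122340561, minus strand, GRCm38) had 372, 373 and 329.8 CPM with Activin A and 167, 173 and 170.1 without. The lowest library with Activin A was far above the highest one without. The fitted change was 2.11-fold (log2 1.07 ± 0.055, adjusted p = 2.57e-09, edgeR), and its log2 fold change stayed between 0.94 and 1.13 under the 19 alternatives. Its paralog Phc2 had 160.3, 160.0 and 144 CPM with Activin A and 206, 208 and 203 without. It moved the other way without overlap (log2 -0.41 ± 0.053, adjusted p = 3.78e-05, edgeR). Phc3 had 16.7, 17.6 and 19.0 CPM with and 22.3, 21.7 and 22.5 without. It was also lower (log2 -0.33 ± 0.079, adjusted p = 0.00589, edgeR), with a log2 fold change of -0.21 under an offset for GC content and length. The call of Phc3 was lost under the transcript length offset and in limma on log2(TPM + 1).

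Per length, Phc1 was the main family member with Activin A and Phc2 without it. Phc1 held 67.8, 66.1 and 69.1% of the summed TPM of the family in the libraries with Activin A and 44.5, 46.0 and 41.7% in those without. The shares of Phc2 were 31.4, 32.8 and 30.0% with Activin A and 54.0, 52.7 and 56.6% without. Phc3 held under 2% in every library. The order of Phc1 and Phc2 was thus exchanged between the groups in every library, and the exact two-sided permutation test gave p = 0.1, the smallest that 3 libraries against 3 can give.

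The start regions of both genes are shown because they moved in opposite directions and differ in base composition. The sequences are those of RefSeq on GRCm38.p6, 300 bases from 250 before the annotated start to 50 after it, 5′ to 3′ on the strand of the gene, with CG dinucleotides in capitals. Phc1 is at chr6:122340178-122340477 on the minus strand, and Phc2 at chr4:128727321-128727620 on the plus strand, the start nearest its leading transcript Phc2-202.
Phc1: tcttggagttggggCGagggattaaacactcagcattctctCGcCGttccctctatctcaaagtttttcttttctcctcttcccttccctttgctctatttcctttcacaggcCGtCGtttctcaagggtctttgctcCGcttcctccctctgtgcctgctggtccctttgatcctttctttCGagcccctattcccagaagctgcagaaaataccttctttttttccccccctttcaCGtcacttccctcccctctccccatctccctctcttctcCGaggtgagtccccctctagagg
Phc2: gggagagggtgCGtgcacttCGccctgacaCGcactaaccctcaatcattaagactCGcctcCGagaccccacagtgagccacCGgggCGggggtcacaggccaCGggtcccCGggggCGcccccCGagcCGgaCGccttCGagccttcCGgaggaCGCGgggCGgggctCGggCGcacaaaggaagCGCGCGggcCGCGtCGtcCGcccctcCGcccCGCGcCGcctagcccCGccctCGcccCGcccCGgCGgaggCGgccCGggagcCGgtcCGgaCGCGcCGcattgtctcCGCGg
The Phc1 region holds 9 CG dinucleotides and the Phc2 region 45. Promoters were matched for 43 of the 52 genes, 55 in all, with a median of 29 CG dinucleotides, where the median of all 32851 such promoters was 7. Only 6 of the 55 hold at most 9, a count that includes the Phc1 region itself and 1 of the Phc2 regions. Of all promoters 56.5% hold at most 9. Neither sequence holds CAGAC, the SMAD-binding box, or ATGCAAAT, the octamer bound by POU factors, on either strand. Phc2 has further RefSeq starts, whose regions hold 19 and 2 CG dinucleotides, and the region with 2 holds both motifs. CAGAC occurs in 21 of the 55 promoters (38.2%) and in 49.6% of all, and ATGCAAAT in 1 (1.82%) and in 1.74% of all. The leading Phc1 transcript in the group with Activin A, Phc1-202, has its annotated start at position 122337015, inside the gene and outside this window.

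**Figure D2:**
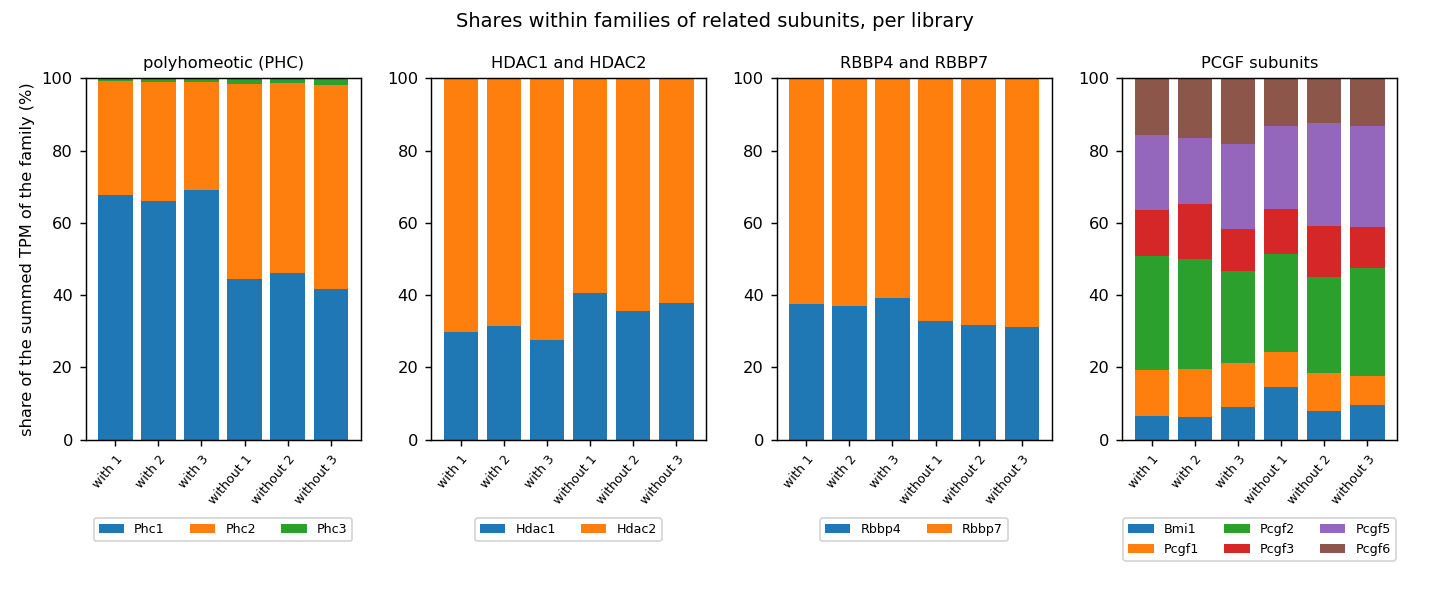
Share of the summed TPM of a family (y axis, percent) held by each gene in each of the 6 libraries, for the PHC, HDAC, RBBP and PCGF families. Phc1 fills 66.1 to 69.1% of the PHC bars with Activin A and 41.7 to 46.0% without, and Hdac2 is larger and Rbbp7 smaller in each library with Activin A.

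Among the CBX subunits, which read H3K27 methylation, Cbx7 was higher and Cbx2 lower with Activin A. Cbx7, a main CBX protein of pluripotent mouse cells, had 46.6, 45.1 and 40.1 CPM with Activin A and 37.2, 33.3 and 32.0 without. The groups were apart by a narrow margin, with a log2 fold change of 0.37 ± 0.076 (adjusted p = 0.00189, edgeR). Its TPM did not show this, at 9.93 ± 0.426 TPM with Activin A and 10.4 ± 4.93 TPM without, and with the transcript length offset the log2 fold change was -0.0068 (adjusted p = 0.991). In replicate 1 without Activin A, 7.21 of its 16.1 TPM came from 1 read on Cbx7-209, a retained-intron transcript of 148 bases. The other libraries without Activin A had 8.20 and 7.03 TPM, and those with it 10.4, 9.92 and 9.50 TPM. That read also enters the lengths behind the offset, and the effect of that read was not tested. Cbx2, linked to chromatin compaction, fell by 0.22 on the log2 scale (SE 0.067, adjusted p = 0.0211, edgeR), a call lost without replicate 2 with Activin A or replicate 1 or 2 without (0.0650 to 0.0979) or without both doubted libraries (log2 -0.14, adjusted p = 0.0955). Cbx6, Cbx8, Scmh1 and Scml2 did not pass, with log2 fold changes between -0.30 and 0.15. Cbx6 passed as higher without the library with Activin A replicate 3 (adjusted p = 0.00174, edgeR).

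Of the 8 MLL/COMPASS and demethylase genes, Kmt2d alone passed. Kmt2d, which with KMT2C places H3K4 methylation at enhancers, had 66.3, 63.9 and 60.6 CPM with Activin A and 80.4, 79.1 and 77.2 without. The groups did not overlap (log2 -0.31 ± 0.056, adjusted p = 0.000779, edgeR). Its TPM overlapped, and the call was lost under the transcript length offset (log2 -0.087, adjusted p = 0.729, edgeR) and in limma on log2(TPM + 1) (log2 -0.11, adjusted p = 0.698). Kmt2c had 37.6, 33.2 and 41.0 CPM with and 37.8, 36.8 and 35.8 without, overlapping, with a 95% interval from -0.15 to 0.17. Kmt2a (MLL1), which maintains Hox expression, had 75.0, 67.3 and 75.2 CPM with and 79.1, 79.8 and 80.6 without. Its libraries with Activin A were all lower, but it did not pass (log2 -0.14, adjusted p = 0.0881, edgeR; 0.0156 without the library with Activin A replicate 3). Kmt2b, which acts at bivalent promoters, had 110.2, 103 and 86.5 CPM with and 107, 118 and 116 without (log2 -0.19, adjusted p = 0.0824, edgeR; 0.0316 without the library with Activin A replicate 1).

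The H3K27 demethylases did not pass. Kdm6a (UTX), a subunit of the KMT2C and KMT2D complexes, had 86.2, 75.3 and 93.9 CPM with Activin A and 75.2, 77.7 and 77.8 without. Kdm6b (JMJD3) had 125, 118 and 98.3 CPM with and 110.2, 116 and 112 without. For both the groups overlapped, and the 95% intervals of the log2 fold change ran from -0.0089 to 0.29 and from -0.14 to 0.17. Leaving out 1 library called each as higher, Kdm6a without replicate 2 with Activin A (adjusted p = 0.0140, edgeR) and Kdm6b without replicate 3 (0.0499). Wdr5 and Ash2l, core subunits shared by all these complexes, had log2 fold changes of 0.058 and -0.093, and Ash2l passed as lower without the library with Activin A replicate 3 (adjusted p = 0.0192, edgeR).

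Among the complexes of the list, SWI/SNF had the highest share of lower genes. With Activin A 7 of its 10 listed genes were lower, 1 was higher and 2 did not pass, with a median log2 fold change of -0.26. Of all genes tested 14.0% passed as lower, and 17.6% of those that averaged 10 CPM or more. Of 20 further SWI/SNF genes, given below, 2 were lower and 4 higher. The 7 lower ones of the 10 are both ATPases, both SMARCC scaffolds and all ARID subunits of the list. The BAF form, which carries ARID1A or ARID1B, and the PBAF form, which carries ARID2, thus each hold lower members. Of these 7 calls 3 held under the transcript length offset (Arid1a, Arid1b and Arid2). In limma on log2(TPM + 1) 1 held, that of Arid1a, so the calls of both ATPases and both scaffolds were lost in both settings. Smarca4 (BRG1), the main ATPase in pluripotent cells, had 403, 402 and 348 CPM with Activin A and 448, 447 and 451 without. Smarca2 (BRM), the alternative ATPase, had 32.8, 32.2 and 32.2 CPM with and 38.3, 39.8 and 38.7 without. Neither gene overlapped between groups, and the log2 fold changes were -0.22 ± 0.057 (adjusted p = 0.00907) and -0.26 ± 0.061 (adjusted p = 0.00459, both edgeR). Smarca4 held 73.4% ± 0.39 of the summed TPM of the pair with Activin A and 72.7% ± 1.0 without. Counted in reads, Smarca4 held 92.2% ± 0.58 with and 92.0% ± 0.17 without. The mean transcript length, weighted by TPM, was 1460 bases for Smarca2 and 5460 for Smarca4, so the share depends on the unit.

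Arid1a, the DNA-binding subunit of BAF, had 238, 229 and 202 CPM with Activin A and 281, 285 and 283 without. Arid1b had 41.0, 35.0 and 32.5 CPM with and 47.0, 44.6 and 48.0 without. Both fell without overlap, by 0.34 (adjusted p = 0.00043) and 0.35 (adjusted p = 0.00364, edgeR) on the log2 scale. Smarcc2 (BAF170), which is known to enter the complex as neural cells form, had 44.1, 41.8 and 38.4 CPM with and 48.5, 52.9 and 50.9 without. It was lower as well (log2 -0.29 ± 0.066, adjusted p = 0.00431, edgeR). Smarcc1 (BAF155), the scaffold typical of pluripotent cells, and Arid2 had log2 fold changes of -0.25 ± 0.047 and -0.26 ± 0.053, with adjusted p of 0.000939 and 0.00174 (edgeR), and Arid2 was at -0.15 under the offset for GC content and length.

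Of the SMARCD subunits, which link the complex to transcription factors, Smarcd2 was higher by 0.19 ± 0.054 on the log2 scale (adjusted p = 0.0159, edgeR). This call did not hold in DESeq2, was lost without replicate 1 with Activin A or any single library without it (0.0572 to 0.0893), and the sign turned in the test on log2(TPM + 1), at -0.0099. Smarcd1 was at 0.017 and did not pass. Smarcd3, at 0.46, had all libraries with Activin A above those without and did not pass (adjusted p = 0.0677, edgeR). Of its 31-base words 45.8% occur on the opposite strand, chiefly in Chpf2, so that reads of the overlapping genes cannot be told apart if strand was not used.

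**Figure D3:**
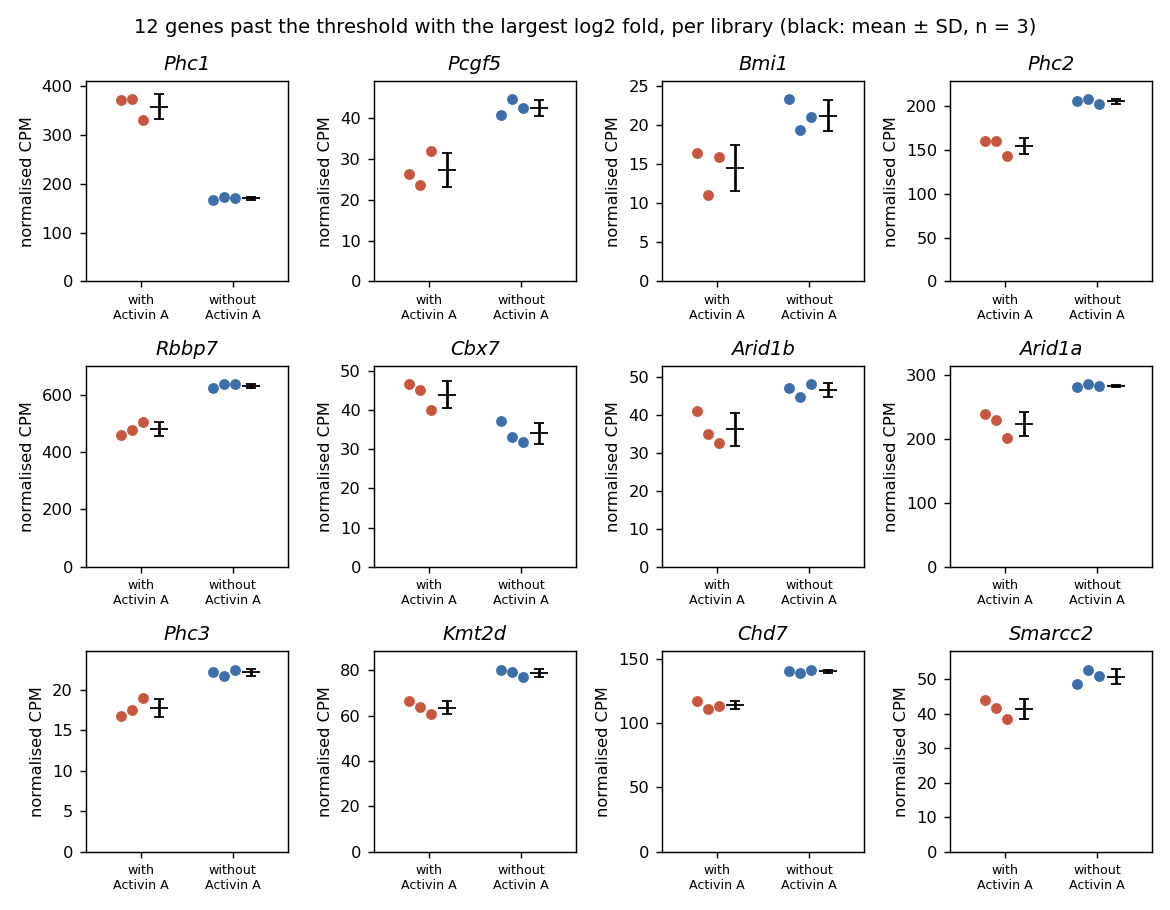
Normalised CPM (y axis, from 0) in each library with Activin A (left) and without (right) for the 12 genes past the threshold with the largest log2 fold changes, with the mean and SD beside the points. Phc1 and Cbx7 are higher with Activin A and the other 10 lower. No gene shows overlap between the groups, which the choice of genes by the test on these same values favours. Of all genes tested 42.9% show none.

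In the CHD and NuRD group 3 genes were lower, Hdac2 was higher and 2 did not pass. Chd7, a remodeller of enhancers that is mutated in CHARGE syndrome in humans, had 117, 111 and 113 CPM with Activin A and 140.4, 139 and 142 without. The groups did not overlap (log2 -0.30 ± 0.049, adjusted p = 0.000292, edgeR). Chd4, the ATPase of NuRD, had 773, 723 and 760.3 CPM with and 852, 856 and 839 without. It was lower by a small amount (log2 -0.17 ± 0.047, adjusted p = 0.0116, edgeR), and did not pass without replicate 1 or without replicate 2 of the group without Activin A (0.0627 and 0.0635) or under the transcript length offset (log2 -0.11). Chd1, which binds H3K4 methylation and is known for keeping chromatin open in mouse embryonic stem cells, was also lower (log2 -0.20 ± 0.057, adjusted p = 0.0147, edgeR), a call lost on leaving out any of 4 single libraries (0.0513 to 0.0972), with a log2 fold change of -0.13 under the offset for GC content and length. Mbd3, which joins NuRD together, had a log2 fold change of -0.079 and did not pass.

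Hdac2, a histone deacetylase of NuRD and other corepressors, had 264, 269 and 308 CPM with Activin A and 229.7, 241 and 224 without. It rose without overlap (log2 0.27 ± 0.06, adjusted p = 0.00318, edgeR). Its paralog Hdac1 had 128, 131 and 122 CPM with and 138, 134 and 133 without. Hdac1 did not pass, and the 95% interval of its log2 fold change ran from -0.20 to 0.02. Of the 31-base words of Hdac1, 40.0% occur in other genes on the same strand, chiefly Gm10093, which held 585 to 875 reads per library, so the level of Hdac1 is uncertain.

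Shares within families of related subunits were computed from TPM for 14 families (40 shares), of which the RBBP, RING, KMT2 and KDM6 families were chosen once values had been looked at. In 6 families at least 1 share did not overlap between the groups, 11 of the 40 shares in all, where the shares of a pair always count together. A rate over other gene families was not computed, so the count cannot be set against a background. Each share without overlap had p = 0.1 in the exact two-sided permutation test, which is not below 0.05 and is the smallest possible. Beside the PHC family, Hdac2 held 70.4% ± 1.9 of the HDAC pair with Activin A and 62.0% ± 2.5 without (SD, n = 3 each), a share that rests on the uncertain level of Hdac1. Rbbp4 held 37.9% ± 1.2 of its pair with Activin A and 32.0% ± 0.77 without. Of the Rbbp4 TPM, 63.5% with and 64.9% without lay on Rbbp4-203, which is annotated as a processed transcript and not as protein-coding. Among the PCGF genes, Pcgf6 and Pcgf1 held larger shares with Activin A (16.8% ± 1.3 and 12.8% ± 0.54) than without (12.9% ± 0.45 and 9.50% ± 1.3), while the shares of Pcgf5 overlapped (20.8% ± 2.7 with and 26.6% ± 2.9 without, exact permutation p = 0.2), a difference of -5.75 percentage points that was -8.79 without both doubted libraries. Within the EZH, RING, SMARCA and SMARCC pairs the TPM share of the larger paralog differed by under 2 percentage points between the groups, and shares overlapped. Of the Rnf2 TPM, 58.2% with Activin A and 56.3% without lay on Rnf2-202, also annotated as a processed transcript. Counted in reads, the share of Ezh2 did not overlap, at 73.7% ± 0.19 with Activin A and 75.8% ± 0.52 without, a difference of -2.12 points (exact permutation p = 0.1).

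The split of each gene into transcripts showed where the summed counts hide a shift. The 52 genes have 435 annotated transcripts in the data, of which 202 held at least 5% of the TPM of their gene in a group, and for 41 of these (20.3%) the shares did not overlap between the groups. Among all genes tested 13.4% of such transcripts did not overlap, and 15.9% among genes that averaged 10 CPM or more. By group means, 43 of the 52 genes had the same leading transcript in both groups, and 33 had the same in all 6 libraries. For Kmt2b only, the leader differed between every library of the groups, yet by a narrow margin, with Kmt2b-206 leading at 27.3% with Activin A and Kmt2b-201 at 27.9% without.

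Of the transcripts whose shares did not overlap, the one with the largest shift was in Jarid2, the PRC2 subunit needed for recruitment to developmental genes in mouse embryonic stem cells. Its reads were level, at 270.0, 258 and 257 CPM with Activin A and 267, 263 and 266 without. The protein-coding transcript Jarid2-208 (5997 bases) held 78.2, 82.1 and 80.8% of Jarid2 TPM with Activin A and 54.5, 50.8 and 56.6% without. Jarid2-210 (4135 bases), also protein-coding, held 0.86% in replicate 1, almost nothing in replicate 2 and 1.93% in replicate 3 with Activin A, against 13.8, 9.80 and 16.1% without. In reads, Jarid2-210 was assigned 28.0, 0 and 38.1 with Activin A and 476, 371 and 530.1 without. A transcript marked for nonsense-mediated decay, Jarid2-207, held 0.014, 0 and 1.14% with Activin A and 5.82, 14.0 and 15.2% without, on 0 to 57.7 reads. The exact permutation test gave p = 0.1 for each of the 3 transcripts.

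Jarid2-208 and Jarid2-210 have different annotated starts on chromosome 13, at 44731271 and 44730774 (GRCm38, plus strand), and their start regions are shown for that reason, taken from RefSeq (GRCm38.p6) as above, with CG dinucleotides in capitals. The region of Jarid2-208 is chr13:44731021-44731320 and that of Jarid2-210 is chr13:44730524-44730823, both on the plus strand.
Jarid2-208 start: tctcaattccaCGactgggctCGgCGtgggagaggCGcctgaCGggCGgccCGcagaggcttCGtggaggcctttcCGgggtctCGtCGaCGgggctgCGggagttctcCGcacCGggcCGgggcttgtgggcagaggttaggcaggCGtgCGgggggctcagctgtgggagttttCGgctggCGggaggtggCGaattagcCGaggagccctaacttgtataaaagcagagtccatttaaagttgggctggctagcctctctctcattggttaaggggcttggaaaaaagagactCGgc
Jarid2-210 start: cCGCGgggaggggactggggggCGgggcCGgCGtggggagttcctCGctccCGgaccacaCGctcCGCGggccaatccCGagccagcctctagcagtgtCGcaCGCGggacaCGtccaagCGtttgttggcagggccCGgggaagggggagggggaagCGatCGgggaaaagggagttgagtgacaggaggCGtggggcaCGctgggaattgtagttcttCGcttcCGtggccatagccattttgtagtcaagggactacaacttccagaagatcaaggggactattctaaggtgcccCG
They hold 23 and 24 CG dinucleotides, and neither holds CAGAC or ATGCAAAT. Summed over transcripts, Jarid2 was at 30.8 ± 3.28 TPM with Activin A and 40.3 ± 1.95 TPM without, and these did not overlap, although the summed CPM did. TPM divides reads by length, and shorter transcripts held a larger share of the reads without Activin A. With the transcript length offset the log2 fold change was -0.39 (adjusted p = 0.00780, edgeR), against -0.02 (adjusted p = 0.792) on reads alone. Counted in reads, the share of Jarid2-208 was 87.1% with Activin A and 74.8% without, a gap of 12.3 percentage points in place of 26.4.

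**Figure D4:**
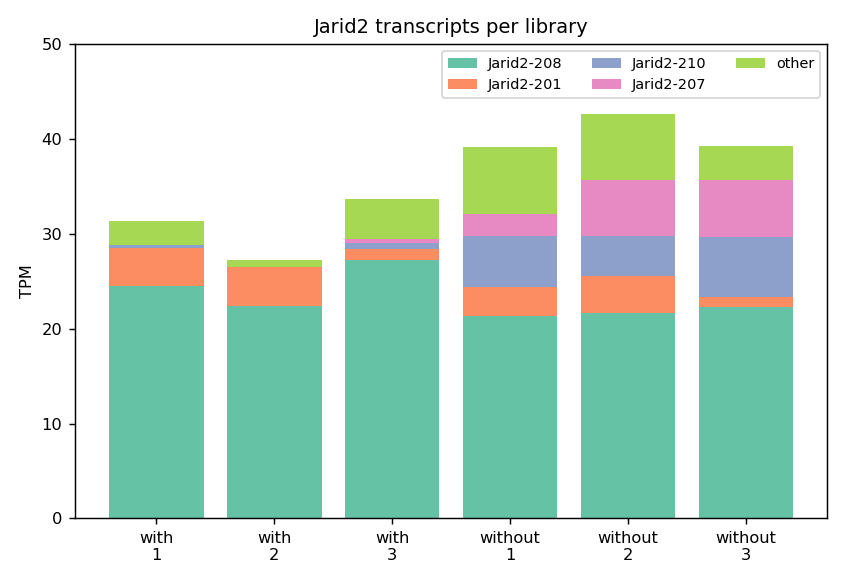
TPM of Jarid2 (y axis) in each of the 6 libraries, stacked by transcript, libraries with Activin A on the left. Jarid2-208 is at 21.3 to 27.2 TPM throughout, and Jarid2-210 and Jarid2-207 are at most 0.65 TPM in libraries with Activin A and 2.28 to 6.32 TPM in those without.

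Phf19-201 had a wider gap between group means, at 38.2% ± 1.5 with Activin A and 65.0% ± 37.3 without, but its shares overlapped (exact permutation p = 0.4). The shifts of the transcripts that follow were without overlap and smaller than that of Jarid2-208, each with p = 0.1 in the exact permutation test. Phc1-202 held 30.0, 39.2 and 34.5% of Phc1 TPM with Activin A and 21.9, 18.6 and 24.9% without. Cbx7-203 held 55.3% ± 5.8 of Cbx7 TPM with Activin A and 36.3% ± 13.1 without. In replicate 1 without Activin A its share was 21.3%, where 44.8% went to 1 read on Cbx7-209, which had no reads in the other libraries. Cbx6-203 held 75.4% ± 8.6 with and 53.6% ± 10.5 without. In reads the gap was smaller. Cbx6-203 was assigned 889, 774 and 468 of 999, 831 and 515 Cbx6 reads with Activin A. Without it the values were 648, 708 and 592 of 731, 812 and 680 reads. The short Cbx6-206 (386 bases) held 16.5, 38.7 and 44.0% of Cbx6 TPM without Activin A, on 4.02, 13.5 and 14.2 reads. With Activin A the shares of Cbx6-206 were 7.43, 0 and 17.7%, which overlapped those without. In Arid1a, the longest coding transcript Arid1a-205 (8187 bases) held 86.8% ± 4.5 with Activin A and 72.3% ± 4.6 without, and Arid1a-201 (6486 bases) held 8.02% ± 5.1 with and 22.9% ± 4.2 without. These splits are estimates by salmon from short reads, and the deposited effective lengths are the same in all 6 files.

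Further genes of the same complexes, on 5 lists of 80 genes in all, gave 20 lower with Activin A, 10 higher and 50 that did not pass (37.5% passed, where 29.2% of all genes did), with a median log2 fold change of -0.056. Of 22 further Polycomb genes 5 were lower and 1 higher. Lcor and Epop, a PRC2 partner that limits its activity, fell by 0.72 and 0.59 on the log2 scale, and Fbrsl1 rose by 0.27. Of 12 further COMPASS genes 5 were lower, led by the H3K4 methyltransferases Setd1b (-0.50) and Setd1a (-0.27), and Wdr82 was higher (0.19). The SWI/SNF list of 20 differed in that its largest changes were rises. Bcl11a and Bcl11b, zinc finger subunits of BAF best known from blood and neural cells, rose by 2.69 and 2.59, with TPM of 4.30 ± 0.32 and 0.81 ± 0.035 with Activin A and 0.80 ± 0.11 and 0.15 ± 0.046 without. In all, 4 of the 20 were higher and 2 lower, Brd9 (-0.32) and Pbrm1 (-0.28), each a subunit that defines a form of the complex.

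Of 10 further NuRD genes, Chd5 (0.72) and Chd3 (0.34), the alternative ATPases of NuRD, were higher and Zmynd8 (-0.24) was lower. In TPM, Chd5 was at 1.56 ± 0.84 with Activin A and 1.38 ± 1.01 without, a difference smaller than the spread. Chd3 was at 25.8 ± 1.2 TPM with and 22.6 ± 2.9 without, and Zmynd8 at 32.6 ± 2.8 with and 46.8 ± 6.7 without. Of 16 ISWI, INO80 and further CHD genes 7 were lower, with Baz1a (-0.49) and Cecr2 (-0.46), both partners of ISWI ATPases, at the low end. Chd9 (0.45) and Chd6 (0.19) were higher. In TPM the differences of Baz1a (17.5 ± 2.4 with Activin A, 18.7 ± 1.6 without) and Chd9 (5.88 ± 3.2 with, 3.90 ± 0.67 without) were within the spread. Cecr2 was at 7.72 ± 1.2 TPM with and 11.9 ± 1.7 without, and Chd6 at 18.8 ± 1.0 with and 15.8 ± 0.72 without. Hox genes, a known class of Polycomb targets, were low in both groups: 7 of 39 passed the filter, and all 39 together summed to 5.67 to 7.24 TPM with Activin A and 4.29 to 4.58 TPM without. Hoxa3 (2.85) and Hoxb2 (1.23) were higher. None was lower in edgeR, also at an unadjusted p under 0.05, or in DESeq2. Both higher genes were very low, Hoxa3 at 0.50 ± 0.18 TPM with Activin A and 0.18 ± 0.25 without. Hoxb2 was at 0.40 ± 0.029 TPM with and 0.17 ± 0.038 without. The spread of Hoxa3 without Activin A exceeded its mean, so the size of its fold is uncertain.

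**Figure D5:**
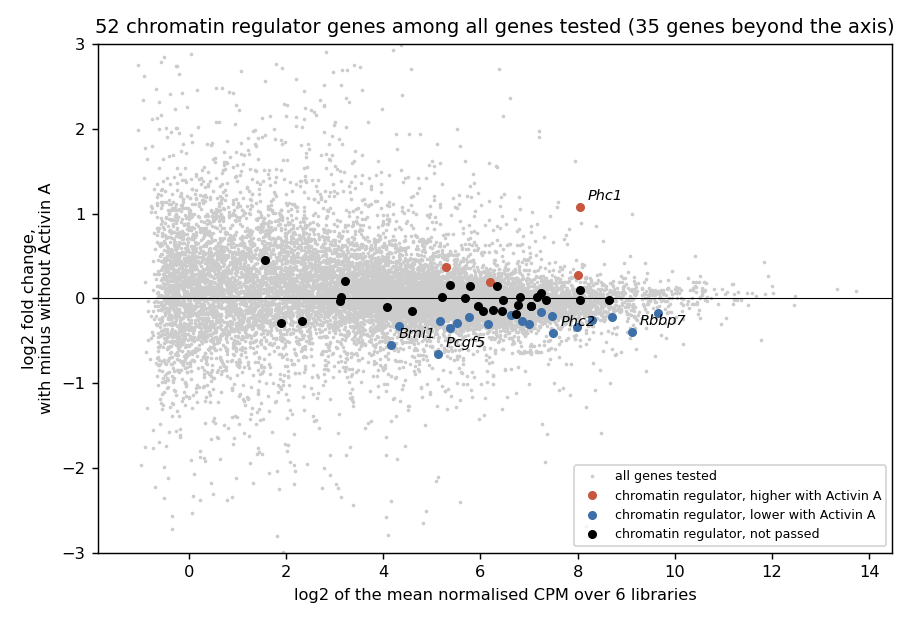
Log2 fold change (with minus without Activin A, y axis) against the log2 of the mean normalised CPM (x axis) for all 15448 genes tested (grey) and the 52 genes (coloured by the outcome of the test), with 35 genes beyond the axis limit of 3. Phc1 is the highest of the 52 genes at 1.07, and the others lie between -0.66 and 0.46.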

How the data were processed

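Poly(A) RNA of 6 libraries, 3 with and 3 without Activin A, was analysed from the deposited tables of estimated counts and TPM per transcript. Per the file headers these are the columns that salmon writes, and Salmon, DESeq2 and edgeR stand, with no version, in the submitters' processing notes. Of the authors' run, the genome build, the annotation and the strand setting were not given in the sources used here. The deposited estimated counts are not normalised, and the deposited TPM values are scaled by effective transcript length and by library total. The deposited effective lengths, averaged per gene with TPM as weights, served for the transcript length offset. The deposited transcript length in bases served for the offset for GC content and length and for sizes.

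Transcripts were matched to GENCODE M21 (GRCm38) with the version ignored: 133399 of 133618 matched, and the 219 others, with 0.140% ± 0.0066 of the reads (SD, n = 6), were left out. Counts were summed per gene, rounded, filtered (filterByExpr, minimum count 10, minimum total 15), scaled by TMM and tested with the robust quasi-likelihood F test of edgeR 4.0.16 in R 4.3.3, with Benjamini-Hochberg adjustment over the 15448 genes and a threshold of 0.05. The standard error is the size of the log2 fold change divided by the square root of F, 95% intervals use the t distribution with the degrees of freedom of that test, and normalised CPM values use the TMM factors. Scripts were tested on simulated data.

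The 52 genes and all lists were chosen with earlier results of these data known. Values in every library are given for the 12 genes past the threshold with the largest changes, the called gene of each complex with the smallest p, and the catalytic subunits, and further lists name at most 2 rises and 2 falls. Shared sequence was searched as words of 31 bases in all transcripts. The alternatives comprised scaling by RLE or upper quartile, a fit in DESeq2 1.42.0, limma-trend (limma 3.58.1) on log2(TPM + 1) and log2(TPM + 0.1), no filter, 1 CPM in 3 libraries, offsets for transcript length and for GC content with length (mgcv 1.9.3), protein-coding genes only, the replicate block, and the removal of libraries. Shares counted in estimated reads were chosen after seeing the data.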

Additional observations from a re-analysis of the deposited data

How the results depend on the processing

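Of 988 tests of single genes under 19 alternatives, 881 kept the call, and 821 kept both call and sign. In the other 60 the sign turned, in 15 genes that passed neither as reported nor under that alternative. Among the 23 genes that passed, signs turned for Cbx7 under the transcript length offset (-0.0068) and for Smarcd2 in limma on log2(TPM + 1) and log2(TPM + 0.1) (-0.0099 and -0.0100). For Cbx7 the lengths are weighted by TPM, of which 1 read held 44.8% in replicate 1 without Activin A. Over all genes, the 2350 higher and 2155 lower calls became 781 and 778 in limma on log2(TPM + 1), 752 and 752 on log2(TPM + 0.1), and 1113 and 937 under the transcript length offset, and DESeq2 gave 1546 higher. The 4 higher and 19 lower chromatin genes became 1 and 3 in both limma tests and 2 and 8 under the transcript length offset, and 8 higher and 25 lower under the GC and length offset (8 and 23 with the replicate block). The cause was not tested. On leaving out each library in turn, the higher chromatin genes numbered 3 to 6 and the lower ones 14 to 23, and all genes 1763 to 2881 higher and 1483 to 2808 lower. The upper counts came from leaving out the library with Activin A replicate 3.

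Replicate numbers did not pair the libraries: same-numbered libraries had correlations of -0.025, -0.052 and -0.057 of their deviations from the group means. With the replicate block, 2297 genes were higher and 2125 lower, and all 23 chromatin calls held. The Hdac2 share differed by 8.40 percentage points, by 6.18 without both doubted libraries (with Activin A replicate 3 and without Activin A replicate 1) and by 5.60 in reads. The Pcgf5 share differed by -5.75 points and by -8.79 without both, and the Jarid2-208 share by 26.4 points and by 12.3 in reads. With 1 library left out, the differences ran over 7.14 to 9.63 points for Hdac2, -7.44 to -4.37 for Pcgf5, 24.8 to 27.8 for Jarid2-208, -14.0 to -10.8 for Jarid2-210, 10.4 to 15.1 for Phc1-202, 22.4 to 24.6 for Phc1, 5.31 to 6.46 for Rbbp4 and 3.23 to 4.51 for Pcgf6. With 3 libraries a group, the depth gave 95% intervals of the log2 fold change as narrow as -0.12 to 0.078 for Jarid2 and as wide as -0.68 to 0.089 for Cbx8, at 3.30 ± 0.47 CPM with Activin A and 4.11 ± 0.69 without.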

Other observations

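Phc1 lies in the neighbourhood of Nanog on mouse chromosome 6, and the genes around it were looked at after their values had been seen. Within 100 kb beyond Phc1 and Nanog, whose gene bodies are 366.9 kb apart on GRCm38, 6 other protein-coding genes were tested, of which 5 were higher and 1 lower with Activin A (edgeR, adjusted p under 0.05). Among all genes tested 15.2% passed as higher and 14.0% as lower. The window was drawn to include Nanog, whose rise was already known. Nanog, the pluripotency factor, had 234.9 ± 12.1 normalised CPM with Activin A and 59.5 ± 3.9 without, a log2 fold change of 1.98 ± 0.061. Gdf3, a TGF-beta family ligand, had 4.92 ± 0.84 CPM with and 2.53 ± 0.45 without (log2 0.98 ± 0.19). Apobec1, an RNA-editing deaminase, had 47.7 ± 2.4 CPM with and 33.7 ± 1.4 without (log2 0.51 ± 0.065). M6pr, which is the next gene to Phc1 and encodes a mannose phosphate receptor, had 225 ± 16.8 CPM with and 174 ± 1.0 without (log2 0.37 ± 0.055). Rimklb was higher by 0.19 ± 0.062. Slc2a3, a glucose transporter beyond Nanog, was lower, at 2910.1 ± 73.7 CPM with and 4074 ± 30.3 without (log2 -0.49 ± 0.047). Whether neighbours share control was not tested.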
